A study of Mus musculus with 9 samples.

Results

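Ribosome biogenesis is the making of ribosomes in the nucleolus. RNA polymerase I transcribes the ribosomal DNA into a long precursor, small nucleolar RNA-protein particles (snoRNPs) modify it and guide its cleavage, and large assemblies of proteins fold, cut and export the small (40S) and large (60S) subunits. The work consumes much of the energy of a growing cell, and in T cells it is switched on when a resting cell is activated and begins to divide. The transcription factor MYC is a known activator of many of its genes.

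The genes described here are 47 ribosome biogenesis and nucleolar genes of the mouse, taken as a list of symbols from this pathway. The list was chosen with earlier results of these data known. All 47 symbols matched 1 identifier each among the 53679 in the count table. All 47 also passed the low-count filter, among 15348 genes tested. By role they are 4 core proteins or partners of the box C/D snoRNPs, 4 proteins of the box H/ACA snoRNPs, 4 abundant nucleolar proteins, 6 factors of ribosomal DNA transcription and the earliest precursor, 10 of the small-subunit (SSU) processome, 5 of late 40S assembly and 14 of 60S assembly.

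The RNA came from C57BL/6 mouse CD8+ T cells after 3 days of activation in culture. The 3 groups were untreated Tc22 cells, Tc0 cells that received CoA (coenzyme A) during activation, and untreated Tc0 cells. Tc22 is the usual name of CD8+ T cells polarised to make interleukin-22, and Tc0 that of cells activated with no polarising cytokine. Each group held 3 libraries, 1 each from mice 715, 725 and 728, and every mouse gave all 3 populations. The labels give neither the ages of the mice nor the dose of CoA, nor the agents that made the cells Tc22. No genotype other than the strain is given, and the protocol gives vehicle as the alternative to CoA.

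Gene counts per library summed to between 28631079 and 33739553 in Tc22 cells, between 22642510 and 27905487 in Tc0 cells with CoA and between 21841034 and 36254631 in Tc0 cells. Single members were covered by 84 to 147425 counts per library. Of 8 CD8 T cell markers, all were above the low-count filter, and their summed level was 2110 to 2633 CPM (a gene's count scaled to a common library size) in Tc22 cells, 1749 to 2216 CPM with CoA and 2138 to 2763 CPM in Tc0 cells. With CoA, 4 of these 8 (Cd3e, Cd3d, Cd2 and Cd3g) were called lower than in Tc0 cells. Over all genes tested, 12.5% were called higher with CoA than in Tc0 cells and 12.0% lower, for this and the marker calls that follow. The 6 macrophage and monocyte markers summed to 6.22 to 7.13 CPM in Tc22 cells, 5.05 to 14.0 CPM with CoA and 4.50 to 6.55 CPM in Tc0 cells, and Lyz2 and Cd14 among them were called higher with CoA than in Tc0 cells. The 6 granulocyte and mast cell markers summed to 0.272 to 1.21 CPM in Tc22 cells, 1.71 to 3.65 CPM with CoA and 0.409 to 1.26 CPM in Tc0 cells; of the 2 that were tested, Mcpt8 was called higher with CoA and Cpa3 was not. Among the markers of other cells, Cd40lg (CD4 T cells) and Zbtb46 (dendritic cells) were called higher and Klra7 (natural killer cells) lower with CoA. In Tc22 over Tc0, 1 CD4 T cell and 1 natural killer cell marker were called higher (2.48% of all genes). In Tc22 over Tc0 with CoA, 4 CD8 T cell, 2 natural killer cell and 1 macrophage marker were called higher (16.0% of all genes). Called lower there were 3 macrophage, 2 granulocyte, 1 CD4 T cell and 1 dendritic cell marker (16.0% of all genes). The part of these markers in the results below was not tested. In bulk RNA, fewer cells of a type and less RNA per cell cannot be told apart, and CPM gives a gene's share of the counted RNA, not its amount per cell.

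The promoters of the members were read for the sequence CACGTG, the E-box that MYC and its partner MAX are known to bind. Of the 47 members, 42 had an entry in the RefSeq table of promoters (GRCm38.p6), which holds 250 bases before and 50 after each gene's start. CACGTG reads the same on both strands, so 1 search covers both. It occurred in 11 of the 42 windows (26.2%), against 8.09% of the windows of all 27025 genes in the table and 11.8% of those of the 10107 genes that were also tested here. The 11 members were Grwd1, Imp4, Ltv1, Mybbp1a, Nle1, Nop2, Pes1, Tsr1, Utp18, Utp20 and Wdr43. A match is a run of letters and does not show that a factor binds there.

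The windows of Grwd1, Ltv1, Nle1, Tsr1 and Wdr43 are not printed, though values of these members are also given below. The following windows are those of the other members with an E-box, and capitals mark it. All are written 5′ to 3′ on the strand of the gene, in GRCm38.p6 coordinates. Those of Utp20 (chr10:88826765-88826789, minus strand), Pes1 (chr11:3963965-3963994, plus strand) and Mybbp1a (chr11:72441355-72441376, plus strand) lie around or just after the start of the gene. The windows of Imp4 (chr1:34439696-34439725, plus strand), Nop2 (chr6:125131811-125131840, plus strand) and Utp18 (chr11:93885769-93885798, minus strand) have their E-box 121, 60 and 20 bases before it.
Utp20: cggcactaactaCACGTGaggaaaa
Pes1: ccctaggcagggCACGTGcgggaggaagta
Mybbp1a: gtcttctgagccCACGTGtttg
Imp4: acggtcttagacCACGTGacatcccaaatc
Nop2: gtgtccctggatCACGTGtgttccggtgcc
Utp18: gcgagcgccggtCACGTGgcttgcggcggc

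Members differed widely in level. Npm1, the gene of nucleophosmin, an abundant nucleolar chaperone, averaged 3328 ± 191 CPM in Tc22 cells, 4441 ± 587 CPM with CoA and 3843 ± 981 CPM in Tc0 cells (SD, n = 3 each). Ncl, which encodes nucleolin, averaged 830.2 ± 27.1 CPM in Tc22 cells, 1532 ± 341 CPM with CoA and 999.1 ± 192 CPM in Tc0 cells. Ddx21, an RNA helicase of ribosomal DNA transcription, averaged 322 ± 61.6 CPM in Tc22 cells, 576 ± 104 CPM with CoA and 384 ± 101 CPM in Tc0 cells. The 3 lowest were Nle1, Gar1 and Rrp9, and Nle1, a WD-repeat factor of 60S release, averaged 6.03 ± 0.197 CPM in Tc22 cells, 9.24 ± 2.08 CPM with CoA and 5.18 ± 2.0 CPM in Tc0 cells. Per kilobase of the longest annotated coding transcript, the mean level of Npm1 was 2038 CPM in Tc22 cells, 2719 CPM with CoA and 2353 CPM in Tc0 cells, and that of Nle1 3.38 CPM in Tc22 cells, 5.18 CPM with CoA and 2.90 CPM in Tc0 cells. Npm1 has processed copies elsewhere in the genome, so its reads may have been shared with them and its level is less certain than the others.

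Summed over the 47 members, the level was 8413, 7992 and 7208 CPM in the Tc22 libraries of mice 715, 725 and 728. It was 11431, 14803 and 11431 CPM with CoA and 10390.5, 9102 and 7029.9 CPM in Tc0 cells. All 3 libraries with CoA stood above all 6 others, while the Tc22 and Tc0 libraries overlapped. Without Npm1, which made up much of the sum, the means were 4543 ± 421 CPM in Tc22 cells, 8114 ± 1421 CPM with CoA and 4998 ± 734 CPM in Tc0 cells (SD, n = 3 each). Within a mouse, the sum with CoA over that in Tc0 cells was 1.10 in mouse 715, 1.63 in mouse 725 and 1.63 in mouse 728, so the smallest ratio was that of mouse 715.

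**Figure D1:**
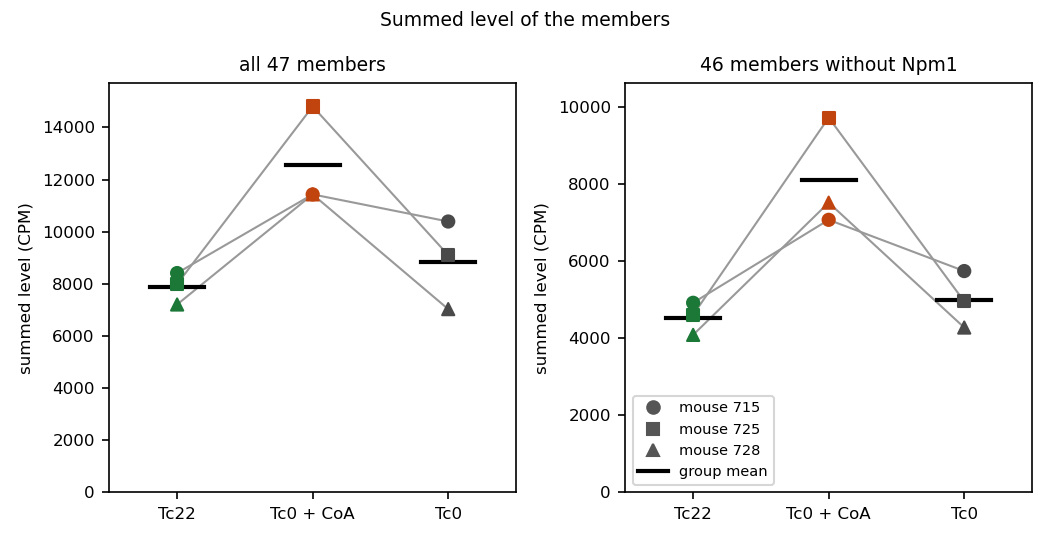
Summed level of the members (CPM, vertical axis from 0) in Tc22 cells, Tc0 cells with CoA and Tc0 cells, for all 47 members (left) and for 46 without Npm1 (right). Symbols are libraries, grey lines join the libraries of a mouse and black bars are group means; the libraries with CoA lie highest in every mouse, with mouse 725 at 14803 CPM on the left.

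With CoA, ribosome biogenesis genes stood higher than in untreated Tc0 cells across every role. Of the 47 members, 41 (87.2%) were called higher and 0 lower at an adjusted p under 0.05 (edgeR's quasi-likelihood test with mouse as a block, Benjamini-Hochberg over all genes), where 12.5% of all genes tested were called higher and 12.0% lower. The median log2 fold change over the members was 0.74, which is 1.67-fold, against -0.01 over all genes, and all 47 fitted values lay above 0 (49.1% of all genes). They ranged from 0.18 for Imp3 to 1.35 for Rrp12. In 43 members the level was higher with CoA in all 3 mice (27.2% of all genes), and in 34 every library with CoA lay above every Tc0 library (14.2% of all genes). A call with a log2 fold change of at least 1 was made for 10 members and for 4.15% of all genes. The count depended on single libraries: it was 21 when the Tc0 library of mouse 725 was left out. It was 25 and 26 when the libraries with CoA of mice 725 and 728 were left out in turn, and 23 when mouse was not used as a block. The counts over all genes in these fits are not given here. A loss of calls among the members is thus not told apart from a loss over all genes.

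**Figure D2:**
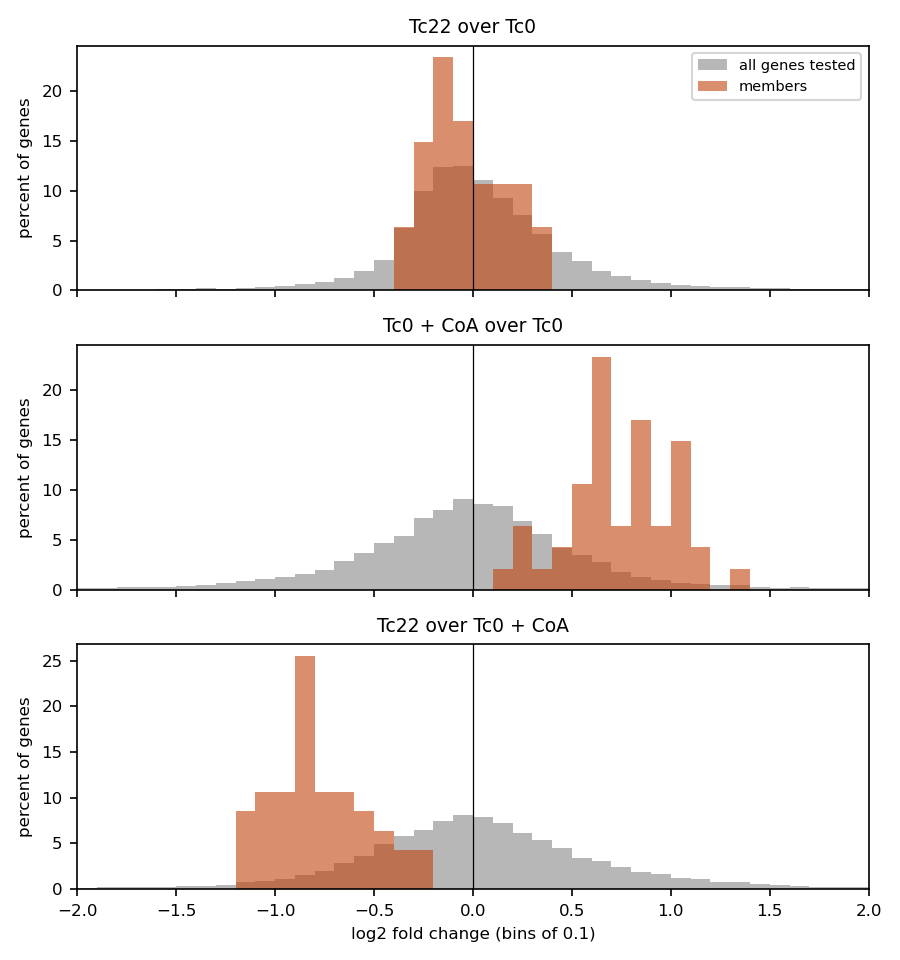
Share of genes (percent, vertical axis) by log2 fold change (horizontal axis, bins of 0.1) for the 47 members (orange) and all 15348 genes tested (grey) in Tc22 over Tc0, Tc0 with CoA over Tc0, and Tc22 over Tc0 with CoA. The members lie around a median of -0.07 in the first panel, 0.74 in the second and -0.80 in the third.

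The 47 members are considered next by role. The box C/D snoRNPs, which methylate ribosomal RNA and help to cleave it, had all 4 members called higher with CoA. Nop56, a core protein of these particles, had 263, 239 and 200.3 CPM in the Tc22 libraries of mice 715, 725 and 728, 447, 609 and 449 CPM with CoA and 309.9, 255 and 218 CPM in Tc0 cells. Every library with CoA lay above all others. Its log2 fold change with CoA was 0.95 (SE 0.14, adjusted p = 0.00305). Its partner Nop58 rose by 0.66 (SE 0.15, adjusted p = 0.0131), with 311 CPM in the lowest library with CoA against 315 CPM in the highest Tc0 library. Fbl, the methyltransferase fibrillarin, rose by 0.56 (SE 0.14, adjusted p = 0.0174), and Rrp9, a protein of the U3 particle, by 1.14 (SE 0.26, adjusted p = 0.0128). The Rrp9 groups overlapped, since the library with CoA of mouse 715 had 23.1 CPM and the Tc0 library of mouse 728 had 23.7 CPM. Of the members, 7 hold 21 snoRNA genes within their own introns or exons on the same strand, such as Snord57 in Nop56 and Snord70 in Nop58, and 20 of these snoRNAs had 0 counts in all libraries, so their output could not be read here.

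Of the box H/ACA proteins, whose particles turn uridines of ribosomal RNA into pseudouridine, 3 of 4 were called higher with CoA. Nop10 had 61.3, 55.4 and 52.4 CPM in Tc22 cells of mice 715, 725 and 728, 87.8, 112 and 101 CPM with CoA and 61.3, 56.6 and 54.3 CPM in Tc0 cells. The Tc22 and Tc0 values overlapped and those with CoA stood apart, at a log2 fold change over Tc0 of 0.81 (SE 0.12, adjusted p = 0.00315). Dkc1, the pseudouridine synthase dyskerin, rose by 0.64 (SE 0.14, adjusted p = 0.0121) and Nhp2 by 0.97 (SE 0.19, adjusted p = 0.00724). Gar1 did not pass the threshold (log2 fold change 0.51, SE 0.20, adjusted p = 0.0829).

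Among the abundant nucleolar proteins 3 of 4 were called higher. Nolc1, a scaffold that binds snoRNPs in the nucleolus and Cajal bodies, had 116, 109 and 96.3 CPM in Tc22 cells, 189, 285 and 242 CPM with CoA and 116, 99.8 and 115 CPM in Tc0 cells. The 3 libraries with CoA were far above the other 6, which lay close together. The log2 fold change with CoA over Tc0 was 1.11 (SE 0.15, adjusted p = 0.00263). Ncl rose by 0.61 (SE 0.14, adjusted p = 0.0150) and Gnl3, the gene of nucleostemin, a nucleolar GTPase, by 0.82 (SE 0.17, adjusted p = 0.0105). Npm1 had 4350, 5068 and 3904 CPM with CoA and 4640.5, 4140 and 2747 CPM in Tc0 cells; its groups overlapped and its log2 fold change was 0.23 (SE 0.14, adjusted p = 0.249).

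All 6 factors of ribosomal DNA transcription and the earliest precursor were called higher with CoA. Mybbp1a, a nucleolar MYB-binding protein, rose by 1.06 (SE 0.17, adjusted p = 0.00450). Its levels were 198, 182 and 169.8 CPM in Tc22 cells of mice 715, 725 and 728, 269.5, 408 and 355 CPM with CoA and 159, 137 and 199 CPM in Tc0 cells. Libraries with CoA lay above all others. The remaining 5, which are Ddx21 and the early-binding processome proteins Heatr1, Utp15, Wdr43 and Wdr75, had log2 fold changes between 0.47 (Wdr43, SE 0.14, adjusted p = 0.0366) and 0.64 (Utp15, SE 0.13, adjusted p = 0.00854).

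In the SSU processome, the assembly that forms on the growing precursor and makes its first cuts, 7 of 10 members were called higher with CoA. Utp20 had 103, 99.9 and 74.3 CPM in Tc22 cells, 179.9, 280.1 and 166 CPM with CoA and 121, 106 and 77.0 CPM in Tc0 cells. Its library with CoA of mouse 725 was the highest of all 9. The log2 fold change with CoA was 1.03 (SE 0.15, adjusted p = 0.00277). Imp4, which binds the U3 RNA together with Imp3, had 47.1, 53.8 and 42.6 CPM in Tc22 cells, 63.7, 102 and 74.3 CPM with CoA and 41.5, 47.7 and 43.8 CPM in Tc0 cells. Again the values with CoA did not overlap the others; the log2 fold change was 0.83 (SE 0.12, adjusted p = 0.00312). Imp3 itself had 36.8, 39.4 and 37.2 CPM in Tc22 cells, 43.7, 48.4 and 46.1 CPM with CoA and 45.4, 41.8 and 34.9 CPM in Tc0 cells. Its log2 fold change with CoA over Tc0 was 0.18 (SE 0.12, adjusted p = 0.289), the smallest of all members. Pwp2 and Wdr3, which form a subcomplex of the processome with Utp18, rose by 0.90 and 0.76, the paired proteins Noc4l and Nop14 by 0.81 and 0.56, and the RNA acetyltransferase Nat10 by 0.47 (adjusted p from 0.00452 to 0.0431). Utp18 (0.29, SE 0.17, adjusted p = 0.241) and the helicase gene Ddx10 (0.23, SE 0.12, adjusted p = 0.177) did not pass either, and for Utp18 the Tc0 library of mouse 715 was the highest of all 9 at 149 CPM.

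Of the 5 factors of late 40S assembly, 4 were called higher. Rrp12, which accompanies subunits to export, had 34.1, 29.5 and 26.7 CPM in Tc22 cells, 46.7, 72.9 and 66.3 CPM with CoA and 23.6, 18.6 and 30.6 CPM in Tc0 cells. With CoA all 3 values stood above the other 6, and in mice 715 and 725 the Tc22 library lay above that of Tc0. The log2 fold change with CoA over Tc0, 1.35 (SE 0.21, adjusted p = 0.00383, 2.55-fold), was the largest of the 47 members. Bysl, Ltv1 and Tsr1, proteins bound to the late 40S precursor, rose by 0.81, 0.75 and 0.84 (SE 0.18, 0.13 and 0.16; adjusted p = 0.0118, 0.00467 and 0.00817). In the annotation, exons of Bysl overlap those of Ccnd3 by 361 bases and exons of Tsr1 those of Srr by 1240 bases on the opposite strand, and whether the counting used strand is not given in the sources used here. Nob1, the nuclease that makes the final cut of 18S rRNA, had 25.5, 30.8 and 34.8 CPM with CoA and 26.3, 19.1 and 28.0 CPM in Tc0 cells, which overlapped (0.33, SE 0.16, adjusted p = 0.172).

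All 14 factors of 60S assembly were called higher with CoA. Nip7, a factor of 60S maturation, had 67.5, 65.0 and 55.6 CPM in Tc22 cells, 116, 158 and 118 CPM with CoA and 78.7, 62.0 and 52.0 CPM in Tc0 cells. No library of either other group reached the lowest with CoA, and the log2 fold change over Tc0 was 1.03 (SE 0.14, adjusted p = 0.00255). Ebna1bp2 had 89.3, 94.5 and 86.3 CPM in Tc22 cells, 119, 152 and 146 CPM with CoA and 80.5, 68.6 and 84.6 CPM in Tc0 cells, so that its 3 groups did not overlap. With CoA it rose by 0.83 (SE 0.12, adjusted p = 0.00317). Pes1, Bop1 and Wdr12 form a complex, PeBoW, that is needed to process the large-subunit precursor. Pes1 had 112, 119.8 and 114 CPM in Tc22 cells, 135, 169.9 and 156 CPM with CoA and 90.0, 90.9 and 107 CPM in Tc0 cells. Its groups were likewise fully apart, and it rose with CoA by 0.68 (SE 0.11, adjusted p = 0.00373). Its partners Bop1 and Wdr12 rose by 1.05 and 0.50 (SE 0.19 and 0.14; adjusted p = 0.00602 and 0.0306). Other members of the group with a log2 fold change over 1 were Nop2, a methyltransferase of 28S rRNA (1.07, SE 0.18, adjusted p = 0.00456), Nop16 (1.05, SE 0.17, adjusted p = 0.00431) and Grwd1 (1.07, SE 0.21, adjusted p = 0.00809). Rrp1b, Rrs1, the helicase gene Ddx18, Noc2l, Noc3l and Nle1 rose by 0.54 to 0.85 (adjusted p from 0.00676 to 0.0226).

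**Figure D3:**
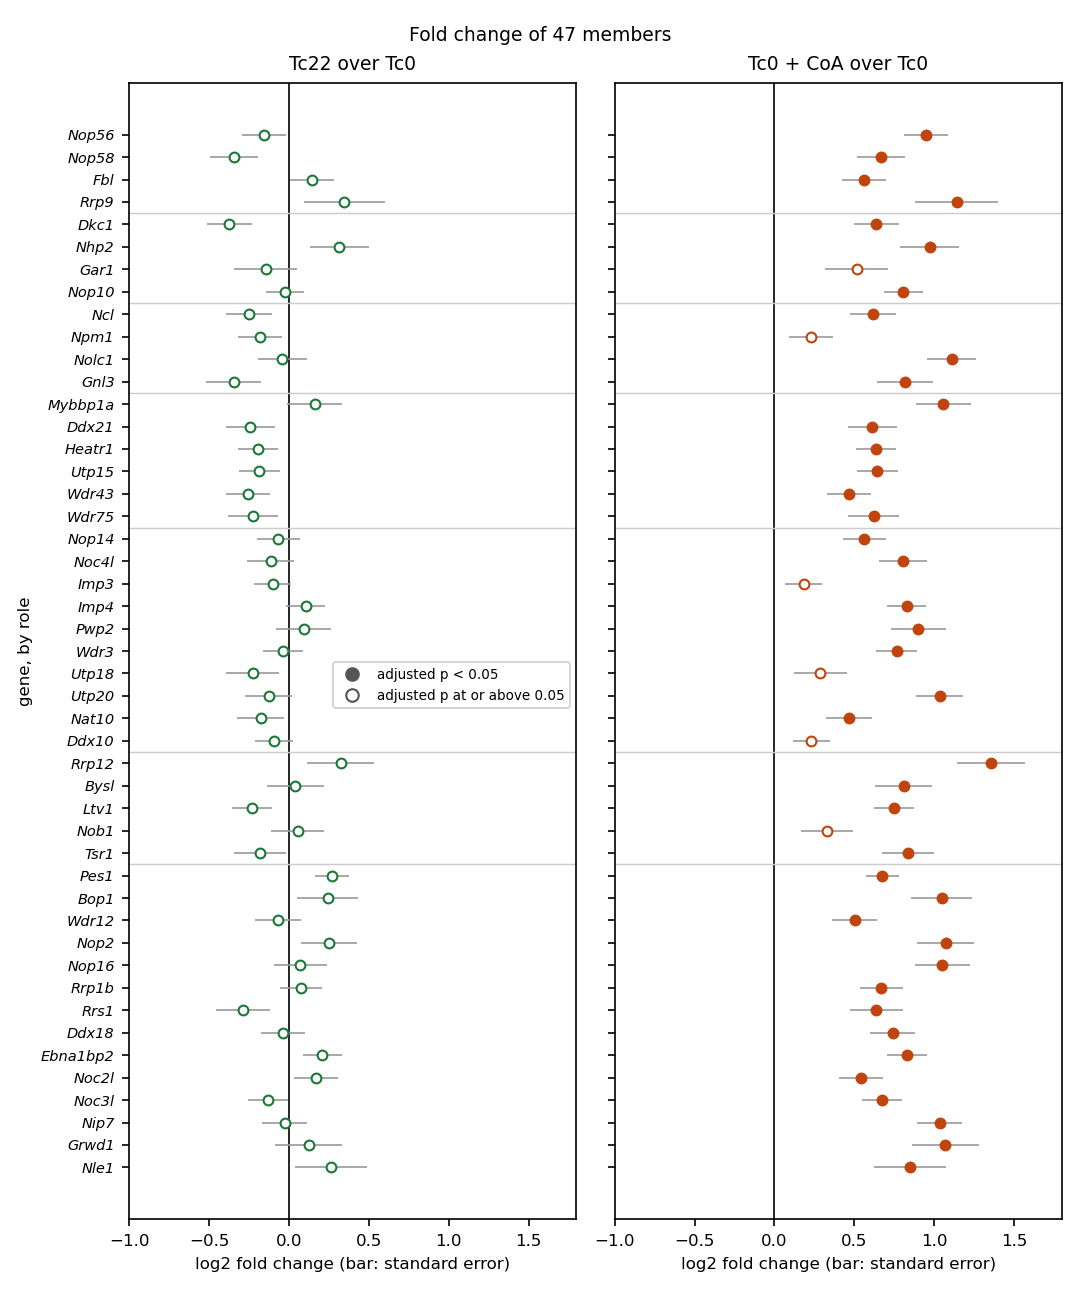
Log2 fold change (horizontal axis) of each of the 47 members, ordered by role from the box C/D snoRNP at the top to 60S assembly at the bottom, for Tc22 over Tc0 (left) and Tc0 with CoA over Tc0 (right). Bars are standard errors and filled points have an adjusted p under 0.05; 0 of 47 points are filled on the left and 41 of 47 on the right.

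Members with and without an E-box in the promoter window were both mostly higher with CoA. Of the 11 with it, 10 were called higher, with log2 fold changes from 0.29 (Utp18) to 1.07 and a median of 0.84. Of the 31 without it, 27 were called higher, from 0.18 to 1.14 with a median of 0.67. The difference between them was not tested. Myc itself had 90.2, 74.9 and 77.2 CPM in Tc22 cells of mice 715, 725 and 728, 87.4, 133 and 111 CPM with CoA and 91.4, 77.7 and 89.0 CPM in Tc0 cells. Its libraries with CoA of mice 725 and 728 were above all others and that of mouse 715 was not. Its log2 fold change was -0.09 (SE 0.16, adjusted p = 0.766) in Tc22 over Tc0 and 0.35 (SE 0.16, adjusted p = 0.130) with CoA over Tc0, neither past the threshold.

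The size of the difference varied among the mice. The median log2 difference between the libraries with CoA and of Tc0 over the 47 members was 0.35 in mouse 715, 0.99 in mouse 725 and 0.77 in mouse 728. The library with CoA of mouse 725 was the highest of the 9 for 39 members, that of mouse 728 for 7 and the Tc0 library of mouse 715 for 1 (Utp18). In mouse 715, 4 members were lower with CoA, namely Npm1, Imp3, Utp18 and Nob1, and none of these 4 was called. Differences between mice with group in the model were called for 1 of 47 members, Dkc1 (edgeR adjusted p = 0.0488), where 12.2% of all genes were called. That test concerns a mouse's level over all groups together. It does not measure how the difference with CoA varied among the mice. Differences among the groups were called for 42 of 47 (33.2% of all genes).

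**Figure D4:**
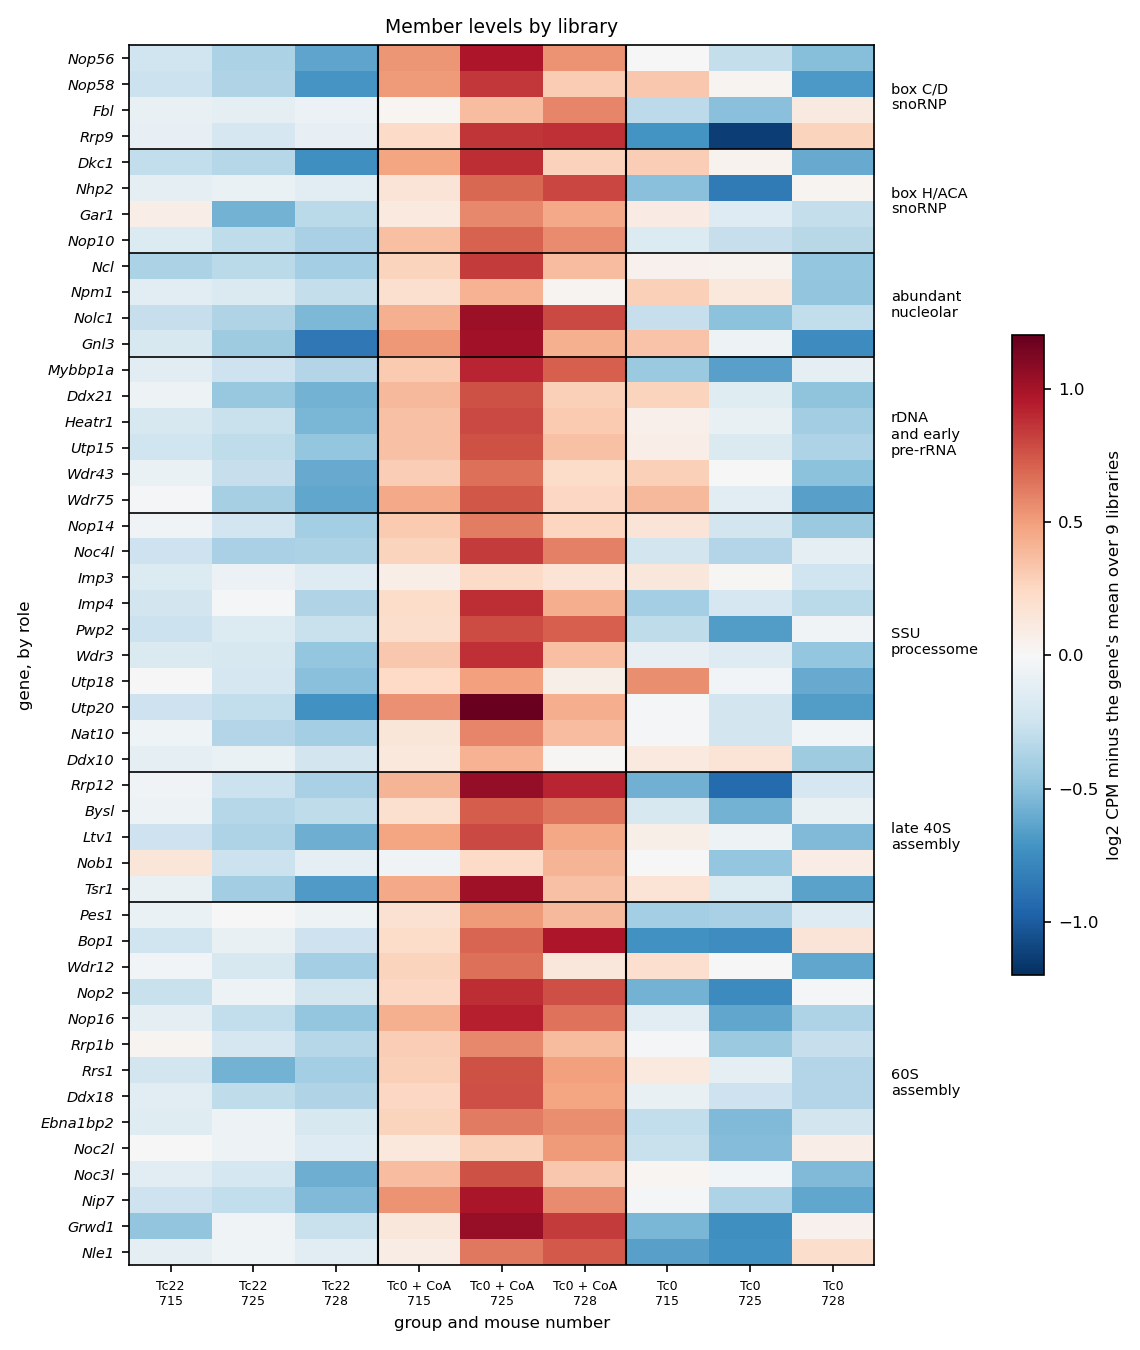
Level of each member in each library, as log2 CPM minus the gene's mean over the 9 libraries (colour scale, red above and blue below), with genes by role down the page and libraries across as Tc22, Tc0 with CoA and Tc0 in the order of mice 715, 725 and 728. The library with CoA of mouse 725 is highest for 39 of the 47 members.

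Between Tc22 cells and untreated Tc0 cells no member passed the threshold. In Tc22 over Tc0, 0 of 47 members were called by edgeR and 0 by DESeq2, where edgeR called 2.48% of all genes higher and 1.21% lower, and 3 members had an unadjusted p under 0.05 (21.2% of all genes). The median log2 fold change was -0.07, against -0.01 over all genes, and the members ranged from -0.37 (Dkc1) to 0.35 (Rrp9). Of the members, 18 were lower in Tc22 cells of all 3 mice (21.2% of all genes) and 2, Pes1 and Ebna1bp2, were higher in all 3 (19.1% of all genes). These 2 were also the only members whose Tc22 and Tc0 libraries did not overlap (6.55% of all genes lay above in this way). A p above the threshold does not show equal levels, and the standard errors of the members, between 0.11 and 0.26 on the log2 scale, set how small a change could be seen.

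The smallest p values in this comparison came from Dkc1, Pes1, Nop58 and Gnl3. Dkc1 had 156, 150.3 and 115 CPM in Tc22 cells of mice 715, 725 and 728 and 234, 196 and 126 CPM in Tc0 cells. Each mouse had the lower value in Tc22 cells, but the groups overlapped, and the log2 fold change was -0.37 (SE 0.14, adjusted p = 0.180). Nop58 had 209.9, 196 and 154 CPM in Tc22 cells and 315, 257 and 156 CPM in Tc0 cells (-0.34, SE 0.15, adjusted p = 0.227), and Gnl3 118, 100.2 and 74.4 CPM in Tc22 cells and 170.4, 129 and 79.8 CPM in Tc0 cells (-0.35, SE 0.17, adjusted p = 0.280). For both, the difference was smallest in mouse 728. Pes1, whose values are given above, was higher in Tc22 cells (0.27, SE 0.11, adjusted p = 0.192). Without the Tc0 library of mouse 728, Pes1 (0.35, adjusted p = 0.0471) and Nop58 (-0.50, adjusted p = 0.0475) passed the threshold.

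The direct comparison of Tc22 cells with Tc0 cells given CoA uses the same libraries as the others and is not separate evidence. In it 42 of 47 members (89.4%) were called lower in Tc22 cells and 0 higher, where 16.0% of all genes were called lower and 16.0% higher. The median log2 fold change was -0.80, against 0.01 over all genes. In 46 members every Tc22 library lay below every library with CoA (21.7% of all genes), the exception being Nob1. The smallest p values were those of Nop56 (-1.10, SE 0.14, adjusted p = 0.000875), Utp20 (-1.16, SE 0.15, adjusted p = 0.000916) and Ltv1 (-0.98, SE 0.13, adjusted p = 0.000927). Next were Nip7, Nolc1, Dkc1, Nop10 and Nop58, with log2 fold changes of -1.06, -1.15, -1.01, -0.83 and -1.01. Members not called were Imp3, Ddx10, Nob1, Noc2l and Nle1, with adjusted p from 0.0579 to 0.228.

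Transcript GC content separated the members in the Tc0 library of mouse 728, which stood apart from the other 2 Tc0 libraries. It was the highest Tc0 library for 16 members, whose median GC content was 55.1%, and the lowest for 26, whose median was 45.5%. Over the 47 members, the log2 ratio of this library to the mean of the other 2 followed GC content with Pearson's r of 0.87 and Spearman's rho of 0.88. Over all 15339 genes with a transcript, r was 0.68 and rho 0.75. Genes are not independent replicates, and the points share 3 libraries. Fold changes were set against GC content in the same way. For Tc22 over Tc0, r was 0.68 over the members and 0.34 over all genes, and rho was 0.67 and 0.50. For Tc0 with CoA over Tc0, r was 0.38 over the members and 0.075 over all genes, and rho was 0.40 and 0.12. For Tc22 over Tc0 with CoA, which does not use the level of this library, r was 0.14 over the members and 0.16 over all genes. The matching rho was 0.14 and 0.19. Rrp9, Nhp2 and Bop1, whose transcripts have a GC content of 59.8%, 54.1% and 58.2%, were examples in which the Tc0 library of mouse 728 lay well above the other Tc0 libraries. When a trend along GC content was taken out of each library, 43 members were called higher with CoA with a median of 0.76, 0 were called in Tc22 over Tc0 and 45 were called lower in Tc22 cells than with CoA. Without the Tc0 library of mouse 728, 35 members were called higher with CoA, with a median of 0.71.

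**Figure D5:**
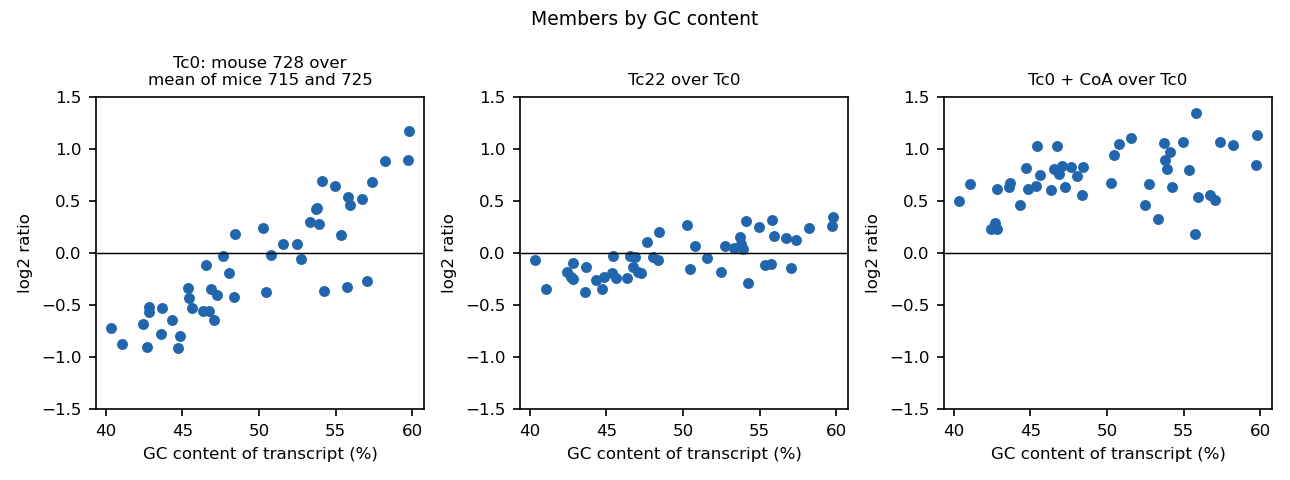
Log2 ratio (vertical axis) against GC content of the transcript (percent, horizontal axis) for the 47 members, 1 point each: the Tc0 library of mouse 728 over the mean of the other 2 Tc0 libraries (left), Tc22 over Tc0 (middle) and Tc0 with CoA over Tc0 (right). The points climb with GC content on the left (r = 0.87), less so in the middle (r = 0.68), and on the right all 47 lie above 0.

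Other genes of the pathway, listed by role, are given beside the members. Over all genes tested, 12.5% were called higher with CoA than in Tc0 cells and 12.0% lower. With CoA, 21 of 37 further SSU processome and 40S assembly factors were called higher and 0 lower (median log2 fold change 0.46). Pdcd11, a large processome protein, had 71.1, 73.0 and 60.5 CPM in Tc22 cells, 116, 179 and 141 CPM with CoA and 59.5, 58.5 and 75.4 CPM in Tc0 cells, and rose with CoA by 1.16 (SE 0.16, adjusted p = 0.00260). Utp4 rose by 0.91 and Bms1, a GTPase, by 0.62 (adjusted p = 0.00260 and 0.00614). Of 47 further 60S assembly factors, 34 were called higher and 0 lower (median 0.53), among them Wdr74 at 1.08, Ftsj3 at 1.06 and Rrp15 at 0.93 (adjusted p = 0.00224, 0.00237 and 0.00406). The medians of both lists were smaller than the 0.74 of the 47 members, and this difference was not tested.

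Genes that build snoRNPs, degrade precursor ends or run RNA polymerase I were also examined. The shares over all genes were again 12.5% called higher and 12.0% called lower with CoA. Of 11 snoRNP assembly factors, 5 were called higher with CoA and 0 lower (median 0.50), with Ruvbl1, an ATPase, at 0.72 (adjusted p = 0.00456), Shq1 at 0.84 (0.00701) and Snu13 at 0.51 (0.0151). Of 14 genes of the RNA exosome and its partners, which trim precursor RNA, 6 were called higher and 1 lower (median 0.30): the nuclease Dis3 rose by 0.78 (adjusted p = 0.00467) and Exosc2 by 0.77 (0.00523), while Exosc8 fell by 0.42 on the log2 scale (SE 0.12, adjusted p = 0.0297). Of 15 genes of RNA polymerase I and its factors, 8 were called higher and 0 lower (median 0.44). Polr1b, a catalytic subunit, had 47.4, 51.1 and 39.9 CPM in Tc22 cells, 80.5, 135 and 92.6 CPM with CoA and 49.3, 45.0 and 48.4 CPM in Tc0 cells, a rise with CoA of 1.08 (SE 0.16, adjusted p = 0.00309). In Tc22 over Tc0, 0 genes of these 5 lists were called, where 2.48% of all genes were called higher and 1.21% lower.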

How the data were processed

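Total RNA from 9 samples of CD8+ T cells (3 groups, 3 mice) was depleted of ribosomal RNA and sequenced as stranded libraries, per the labels' protocols. The authors deposited whole-number counts per gene. The submitters' processing notes list the tools RSEM 1.3.0 and STAR 2.5.2 and the genome builds mm10 and GRCm38, without roles. Which annotation, strand setting and filters were used is not given in the sources used here. RSEM writes estimated counts, so the deposited counts may have been rounded. Reads of near-identical copies and of overlapping genes may have been split between them; exons of 20 members overlap a gene on the opposite strand.

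Low-count genes were removed with filterByExpr by group (minimum count 10), libraries were scaled with TMM, and a quasi-likelihood model with terms for group and mouse was fitted to all 9 libraries together in edgeR 4.0.16 (R 4.3.3; 4 residual degrees of freedom, biological coefficient of variation 0.158). Tests were two-sided; Benjamini-Hochberg adjustment covered the 15348 genes tested, with a threshold of 0.05. A standard error is |log2 fold change| over the root of the F statistic, an approximation. CPM uses the TMM-scaled library sizes. The test was checked on simulated data, which held neither a trend along GC content nor an effect of CoA that varied among mice. Alternatives were no mouse block, DESeq2 1.42.0, other scalings and filters, fits of only the groups compared, leaving out each library, and a correction for GC content (a spline with 5 degrees of freedom per library) that was chosen after seeing the data.

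Mouse was a block because each mouse gave every population, per the series' design text. Deviations from the group means correlated between libraries of the same mouse with r from 0.0699 to 0.617 (mean 0.360, 9 pairs). Between different mice r was -0.527 to 0.228. The library with CoA of mouse 725 was no closer to its own mouse. Its r was 0.178 with Tc0 of mouse 725 and 0.228 with Tc0 of mouse 715, and 0.0699 and 0.122 with Tc22 of these mice. Both comparisons with Tc0 share the Tc0 libraries, and the libraries with CoA are shared likewise. The members and the lists were chosen with earlier results of these data known. Genes singled out were, per comparison, the 8 called members with the smallest p, or 4 where fewer than 4 passed. Also singled out were the 3 highest and 3 lowest in level, up to 3 called genes per other list, and Myc. Not all of these have their levels printed, and of the 3 lowest only Nle1 has its group means given. Rrp12, Mybbp1a, Imp3, Npm1, Nob1 and others were given as well after their values were seen. GC content and length are those of the longest coding transcript in GENCODE M21 (GRCm38), which for some genes includes retained introns. Promoter sequences are RefSeq's.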

Additional observations from a re-analysis of the deposited data

How the results depend on the processing

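The members called higher with CoA than in Tc0 cells, 41, numbered 39 to 43 under other scalings, filters, DESeq2, the GC correction and the fit of only the compared groups. Without mouse as a replicate block there were 23, and leaving out single libraries gave 21 to 44; 20 of the 41 were called under each of the 17 alternatives. The median log2 fold change stayed between 0.60 and 0.92 when single libraries were left out. Of the members lower in Tc22 cells than with CoA, 42, the count was 31 without the replicate block and 29 to 46 without single libraries (medians -0.96 to -0.66), and 26 were called throughout. For none of these alternatives is the count over all genes given beside that of the members. Whether the members lost or gained calls more than other genes therefore cannot be read from these counts.

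In Tc22 over Tc0 the counts of members higher and of members lower were 0 to 1 each without single libraries, and the median was -0.13 to 0.048, so its sign rests on single libraries. Of the single members named in that comparison, Rrp9 turned to -0.034 with the GC correction, and Dkc1, Pes1, Nop58, Gnl3 and Ebna1bp2 kept their sign under the 17 alternatives. Members that differed among the groups numbered 27 to 44 without single libraries and 31 without the replicate block. Those that differed among mice, 1, were 0 with library size scaling, 3 with upper-quartile scaling, 11 with no low-count filter, 2 with a stricter filter, 0 with the GC correction and 0 to 17 without single libraries; the cause was not tested. The comparisons rest on 3 mice, and a member's change below about 0.5 on the log2 scale was often not called.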

Other observations

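Regulators of the MYC and p53 networks were read in the same libraries, as were targets of p53, which is known to respond when ribosome assembly fails. Of 10 regulators of the MYC and p53 networks, 1 was called higher and 3 lower with CoA than in Tc0 cells. Over all genes, 12.5% were called higher and 12.0% lower. The gene called higher was Mdm2, which encodes the main inhibitor of p53 (0.55, SE 0.15, edgeR adjusted p = 0.0252). Mdm2 is also 1 of the 13 p53 target genes below and counts among the 8 called higher there. Mxd4, a partner of MAX that opposes MYC, had 17.0, 33.2 and 43.8 CPM in Tc22 cells of mice 715, 725 and 728, 5.81, 3.33 and 8.97 CPM with CoA and 9.07, 30.6 and 52.9 CPM in Tc0 cells. Its libraries with CoA were the lowest in each mouse, and the log2 fold change with CoA over Tc0 was -2.13 (SE 0.39, edgeR adjusted p = 0.00626). Mnt, another repressor of this network, fell by 0.77 on the log2 scale (SE 0.21, edgeR adjusted p = 0.0241). Mycn, a MYC family gene and not a repressor, fell by 1.67 (SE 0.44, edgeR adjusted p = 0.0230). The repressors Mxd1 and Mxi1, also in the list, were not called with CoA over Tc0. In Tc22 over Tc0, 2 of these 10 regulators were called higher and 0 lower, where 2.48% of all genes were called higher and 1.21% lower. They were Mycl (2.18, SE 0.28, edgeR adjusted p = 0.00309, at most 2.82 CPM) and Mxi1 (0.48, SE 0.10, edgeR adjusted p = 0.0333). Of 13 p53 target genes, 8 were called higher and 3 lower with CoA, where 12.5% of all genes were called higher and 12.0% lower, and 0 were called in Tc22 over Tc0. Cdkn1a, a cell cycle inhibitor, rose with CoA by 0.90 (SE 0.19, adjusted p = 0.0102) and Eda2r by 2.0 (SE 0.41, adjusted p = 0.00943), while Trp53inp1 fell by 1.35 (SE 0.16, adjusted p = 0.00159). Of 14 proliferation genes, 2 were called higher and 3 lower with CoA, where 12.5% of all genes were called higher and 12.0% lower. The median log2 fold change of the 14 was -0.03, against -0.01 over all genes. Those higher were Rrm2 at 0.40 (SE 0.12, adjusted p = 0.0356) and Tyms at 0.34 (SE 0.09, adjusted p = 0.0258), and those lower were Mki67 at -0.57 (SE 0.13, adjusted p = 0.0125), Aurkb at -0.42 (SE 0.11, adjusted p = 0.0181) and Top2a at -0.50 (SE 0.13, adjusted p = 0.0210).

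The libraries were depleted of ribosomal RNA, so what remains of it is no measure of rRNA synthesis. Loci that resemble ribosomal RNA summed to 642, 995 and 1666 CPM in Tc22 cells of mice 715, 725 and 728, to 675, 10874 and 2256 CPM with CoA and to 273, 386 and 2604 CPM in Tc0 cells. The library with CoA of mouse 725, which was the highest for most members, thus also stood apart here. The part of this in the results was not tested. For noncoding RNAs of rRNA processing, 15 identifiers were tested, and some RNAs, such as Rmrp, have more than 1 identifier at the same place. With CoA, 0 of these identifiers were called higher and 1 lower, where 12.5% of all genes were called higher and 12.0% lower. The identifier called lower was that of the U8 RNA gene Snord118 (-1.36, SE 0.31, edgeR adjusted p = 0.0129). Its level was 0.374 to 0.741 CPM in Tc22 cells, 0.399 to 0.651 CPM with CoA and 1.01 to 1.77 CPM in Tc0 cells.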
